A study of Mus musculus with 7 samples.

Results

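The macrophage lipid handling genes are 10 of the 31253 genes listed for the series, Trem2, Gpnmb, Spp1, Cd9, Plin2, Apoe, Fabp5, Abcg1, Cd36 and Lpl. They were picked by symbol, and all 10 were found in each of the 7 single-cell libraries of mouse lung. Their levels are described in alveolar and interstitial macrophages, classical and non-classical monocytes, and general and aerocyte capillary cells. Smad4iko mice (4 libraries) carried floxed Smad4 alleles together with creERT2 at Rosa26, a tamoxifen-activated Cre at a locus active in nearly every cell type, so the deletion is not aimed at 1 class. Smad4fl/fl mice (3 libraries) were floxed littermates without Cre. Tamoxifen (75 mg/kg, intraperitoneal) was given 5 times to all mice of either genotype from day 21 to day 26 after birth, and lung periphery was collected at 8 weeks of age. Each library came from 1 mouse and was made by droplet-based 3' RNA sequencing, in which each captured transcript is counted once by its unique molecular identifier (UMI).

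Macrophages take up lipid from surfactant, lipoproteins and dying cells. Lipoprotein lipase cuts triglyceride into fatty acids, scavenger receptors and fatty acid binding proteins carry them inward, and perilipin-coated droplets store the excess. Cholesterol leaves through ABC transporters to acceptors such as apolipoprotein E, under control of the sterol-sensing liver X receptors. Alveolar macrophages live on surfactant, depend on GM-CSF, TGF-beta and PPAR gamma, and accumulate lipid when these signals fail. TREM2, GPNMB, osteopontin (Spp1) and CD9 are used in several tissues as marks of lipid-associated macrophages. SMAD4 is the shared partner of the SMAD proteins that carry TGF-beta and BMP signals into the nucleus.

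The libraries held 46449235 to 66557262 UMIs. Without low-quality barcodes and doublets there were 49671 cells to analyse, and the median cell of a library had 4463 to 6323.5 UMIs. Cells were clustered without the 10 genes and named by similarity to marker lists, so each name below means cells like that type. This gave 6198 alveolar macrophages, 540 interstitial macrophages, 601 classical and 2111 non-classical monocytes, 2526 general and 794 aerocyte capillary cells. All 11 alveolar macrophage markers had UMIs in the alveolar macrophages of every library, and all 10 interstitial markers in the interstitial macrophages of every library. Smad4iko 3 and Smad4iko 4 stood apart. Of their alveolar macrophages, 733 of 813 and 554 of 652 fell in 1 cluster led by Ear10, Ear1 and Fabp1, to which the other 5 libraries gave 15 to 53 cells each. Of their aerocytes, 55 of 83 and 64 of 99 fell in 1 cluster, to which the Smad4fl/fl libraries gave 8 to 24 cells each. An interstitial macrophage cluster of 285 cells held 216 cells from Smad4iko 4. By Xist and Ddx3y, Smad4iko 3 and Smad4fl/fl 3 were female. Between 10 and 23 cell barcodes were shared by each pair of libraries, 339 barcodes in all. Levels are counts per 1e6 UMIs of the class in the library (CPM), from UMIs summed over its cells. Smad4 itself averaged lower in Smad4iko in all 6 classes and was called (adjusted p under 0.05 by edgeR, over all genes tested) in none of them. In alveolar macrophages it was at 26.9 to 40.9 CPM in Smad4iko and 41.9 to 44.6 CPM in Smad4fl/fl libraries, a log2 difference of -0.38 ± 0.16 (SE, adjusted p = 0.773). The sources used here do not give the deleted exons, so counts at the 3' end check the deletion only in part.

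The genes lie on 7 chromosomes of the mm10 build, and all are protein coding. Trem2 is on chromosome 17, 48346401 to 48354147 on the plus strand, and Abcg1 on chromosome 17, 31057675 to 31117988 on the plus strand, with an rRNA gene overlapping it that is not listed in the files. Spp1 is on chromosome 5, 104435118 to 104441050 on the plus strand and Cd36 on chromosome 5, 17781690 to 17888801 on the minus strand. Plin2 is on chromosome 4, 86648386 to 86670060 on the minus strand, Fabp5 on chromosome 3, 10012548 to 10016607 on the plus strand, Apoe on chromosome 7, 19696109 to 19699188 on the minus strand and Lpl on chromosome 8, 68880491 to 68907448 on the plus strand. Gpnmb is on chromosome 6, 49036546 to 49070929 on the plus strand, and Cd9 on chromosome 6, 125460266 to 125494791 on the minus strand. These last 2 share the chromosome of Rosa26, at 64.0 and 12.4 Mb from it. Cd9 overlaps an antisense gene, Gm28809, which held 2979 UMIs against 385950 for Cd9. Spp1 shares 102 identical bases with the overlapping Gm42793, which is not listed in the files.

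Promoter sequences from RefSeq (GRCm38.p6) were tabled for 7 of the 10 genes. The promoters of 4 genes with different class patterns are shown, because their levels below separate interstitial macrophages (Trem2), alveolar macrophages (Plin2 and Spp1) and capillary cells (Cd36). Each runs 5' to 3' on the gene's strand, from 250 bases before the annotated start to 10 bases into the transcript. The Cd36 start used lies inside the span of the gene given above, downstream of its 5' end at 17888801. Capitals mark matches, on either strand, to AGGTCA (a nuclear receptor half-site), CACGTG (an E-box), GAGGAA (a PU.1 core), GTCTAGAC and GGCGCC (SMAD elements) or TATAAA. The regions are chr17:48346151-48346410 (plus strand), chr4:86670050-86670309 (minus), chr5:104434861-104435120 (plus) and chr5:17835887-17836146 (minus).
Trem2: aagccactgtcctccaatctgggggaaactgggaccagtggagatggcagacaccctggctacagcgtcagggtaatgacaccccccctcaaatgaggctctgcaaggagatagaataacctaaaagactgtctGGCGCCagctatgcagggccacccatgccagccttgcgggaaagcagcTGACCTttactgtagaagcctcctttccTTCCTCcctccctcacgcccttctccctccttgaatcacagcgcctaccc
Plin2: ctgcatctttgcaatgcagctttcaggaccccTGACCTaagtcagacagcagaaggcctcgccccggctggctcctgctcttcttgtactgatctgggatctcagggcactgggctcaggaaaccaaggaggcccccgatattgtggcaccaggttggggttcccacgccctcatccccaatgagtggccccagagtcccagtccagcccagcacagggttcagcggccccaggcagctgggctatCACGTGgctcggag
Spp1: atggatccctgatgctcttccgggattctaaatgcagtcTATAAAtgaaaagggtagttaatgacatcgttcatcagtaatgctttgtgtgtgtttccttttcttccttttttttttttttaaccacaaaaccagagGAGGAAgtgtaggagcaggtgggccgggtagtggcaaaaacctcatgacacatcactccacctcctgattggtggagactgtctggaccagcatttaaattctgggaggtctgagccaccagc
Cd36: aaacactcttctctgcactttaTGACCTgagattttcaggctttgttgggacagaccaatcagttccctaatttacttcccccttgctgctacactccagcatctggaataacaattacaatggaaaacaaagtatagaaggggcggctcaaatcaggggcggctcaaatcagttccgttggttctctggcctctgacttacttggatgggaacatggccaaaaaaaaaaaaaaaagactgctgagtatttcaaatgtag

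AGGTCA was present in the Trem2, Plin2 and Cd36 promoters, each time on the opposite strand, as TGACCT. It occurred in 16.3% of all 32851 tabled promoters. CACGTG lay 4 bases before the Plin2 start (7.15% of promoters), GGCGCC 116 bases before the Trem2 start (11.9%) and TATAAA 211 bases before the Spp1 start (13.6%). GAGGAA was found in the Trem2 and Spp1 promoters (28.3%), and GTCTAGAC in none of those shown (0.213%). The search covered the whole tabled windows, which run further into the transcript than the bases shown. The Gpnmb and Cd9 promoters held none of the 6 motifs. In the 4 promoters shown no matches overlapped each other, and a match describes letters, not binding.

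Of the 30 named classes, 18 had enough cells in at least 5 libraries to be ranked, and the smaller classes and unnamed cells were left out. Among the 18 ranked classes, alveolar macrophages had the highest mean level of 7 of the 10 genes. Interstitial macrophages had that of Apoe and Trem2, and general capillary cells that of Cd36. Levels are given as mean ± SD over libraries. They are described without a test, since the classes come from clusters of the same cells. Counts from the 3' end do not allow 1 gene's level to be set against that of another, so each gene is ordered over classes only.

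Lpl, which hydrolyses triglyceride, averaged 2004 ± 303 CPM in alveolar macrophages and 377 ± 225 CPM in interstitial macrophages, the next class, with no overlap between their libraries. General capillary cells followed at 189 ± 96.0 CPM and overlapped with interstitial macrophages. Alveolar macrophages held 90.7% of all Lpl UMIs of the analysed cells. Cd36, a fatty acid and oxidised lipoprotein receptor, had another order. It averaged 2789 ± 339 CPM in general and 2662 ± 527 CPM in aerocyte capillary cells, which overlapped, while 794 ± 259.7 CPM in non-classical monocytes lay below both without overlap. In alveolar macrophages Cd36 was at 436 ± 103 CPM, the fifth class in order. Cells left unnamed, which were not ranked, held 29.7% of all Cd36 UMIs, beside 29.0% in general capillary cells.

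Fabp5, a fatty acid carrier of the cytosol, averaged 726 ± 165 CPM in alveolar macrophages, above all libraries of the next ranked class, neutrophils, at 199 ± 61.5 CPM. Of all Fabp5 UMIs, neutrophils held 6.93%, migratory dendritic cells 4.39% and alveolar type 2 cells 2.10%. Classes too small to be ranked have no place in this order. Plin2, which coats lipid droplets, was at 1195 ± 245 CPM in alveolar macrophages, and its libraries overlapped those of non-classical monocytes at 659 ± 257 CPM. Interstitial macrophages and classical monocytes followed at 459.7 ± 116 and 394 ± 204 CPM, overlapping each other and the non-classical monocytes.

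Abcg1, which exports cholesterol to high-density lipoprotein, averaged 1379.8 ± 172 CPM in alveolar macrophages. The next class, non-classical monocytes, was at 332 ± 176 CPM, and the groups of libraries did not overlap. Apoe, the lipoprotein that accepts cellular cholesterol, averaged 15288 ± 6144 CPM in interstitial macrophages, 2842 ± 574 CPM in adventitial fibroblasts and 2228 ± 367 CPM in non-classical monocytes. Interstitial macrophages made up 540 of 49671 cells and held 37.7% of the Apoe UMIs.

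Trem2, a lipid-sensing receptor of the myeloid surface, averaged 317 ± 48.8 CPM in interstitial macrophages. Classical monocytes at 44.5 ± 23.0 CPM and alveolar macrophages at 43.4 ± 9.41 CPM lay far below without overlap with them, and overlapped each other. Gpnmb, a glycoprotein linked to the lysosome, was at 213 ± 38.1 CPM in alveolar macrophages and 31.8 ± 28.4 CPM in interstitial macrophages, with no overlap. Spp1, the secreted matrix protein osteopontin, was at 944 ± 255 CPM in alveolar macrophages and 523 ± 445 CPM in neutrophils, and the libraries of the 2 classes overlapped. Cd9, a tetraspanin of many cell types, likewise overlapped between alveolar macrophages at 2718 ± 477 CPM and neutrophils at 1674 ± 473 CPM.

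**Figure D1:**
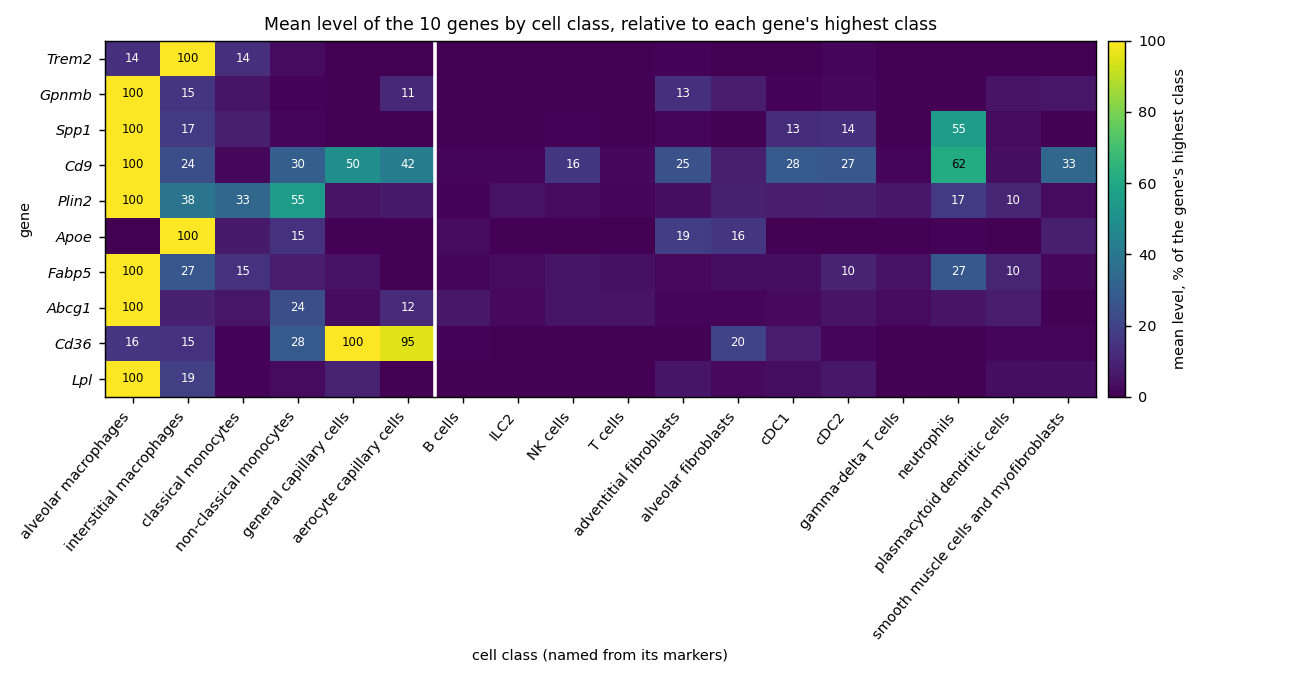
Mean level of each gene (down the page) in 18 cell classes (across), as a percentage of that gene's highest class. Lpl, Abcg1, Gpnmb and Fabp5 reach above 30% only in alveolar macrophages, Apoe and Trem2 only in interstitial macrophages, and Cd36 only in the 2 capillary classes.

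To separate the share of positive cells from the level per cell, each cell was thinned to 1500 UMIs, and T cells served as a class that should lack most of these genes. After thinning, 88.4% of alveolar macrophages, 23.9% of interstitial macrophages and 16.5% of general capillary cells had a UMI of Lpl, against 0.656% of T cells. For Trem2 the shares were 5.28% in alveolar and 30.8% in interstitial macrophages, against 0.0266% of T cells. For Apoe they were 4.83% and 88.5%, against 1.83%. The order of alveolar and interstitial macrophages was thus the same by share as by level for these genes. Without thinning, 32.1% of alveolar and 76.5% of interstitial macrophages had a UMI of Trem2, at median depths of 11934 and 11087 UMIs against 5783 UMIs in T cells. Abcg1 had the highest share in T cells, 10.2%, beside 82.0% of alveolar and 15.1% of interstitial macrophages, so the interstitial share lies close to that of T cells. Thinning left out 24 alveolar macrophages in each genotype, and 7 interstitial macrophages in Smad4iko and 11 in Smad4fl/fl.

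**Figure D2:**
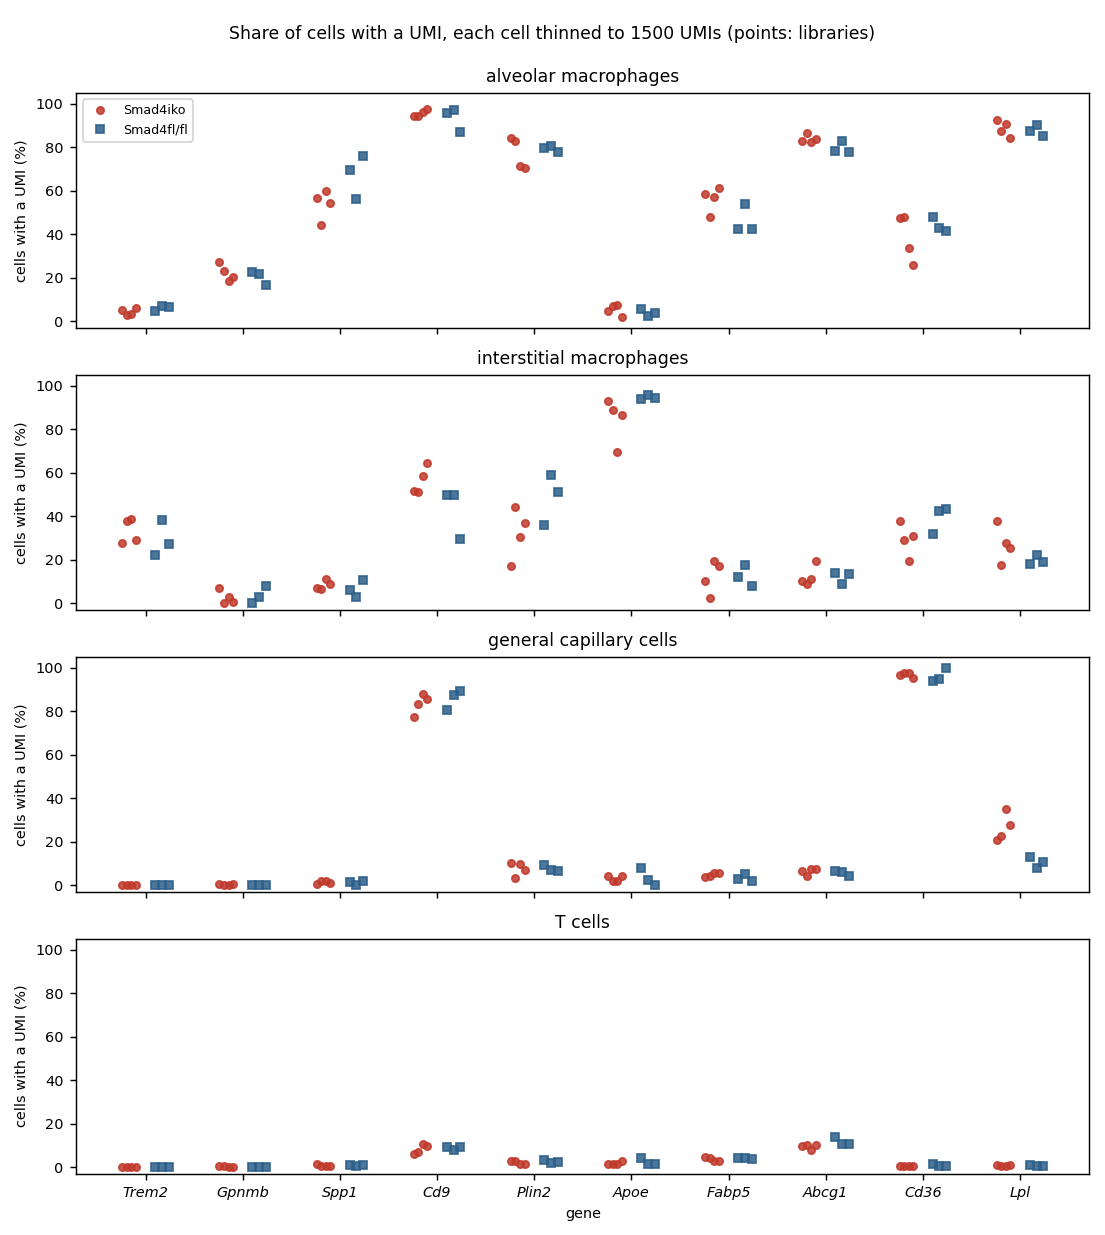
Share of cells with at least 1 UMI of each gene, in percent, per library after thinning to 1500 UMIs, for alveolar macrophages, interstitial macrophages, general capillary cells and T cells (Smad4iko circles on the left, Smad4fl/fl squares on the right). Lpl in general capillary cells was at 20.8 to 35.2% in Smad4iko libraries, above 7.82 to 13% in Smad4fl/fl libraries.

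In alveolar macrophages of Smad4iko against Smad4fl/fl mice, none of the 10 genes was called by edgeR at an adjusted p under 0.05, where 0.0175% of 11434 tested genes were called. Trem2 alone had an unadjusted p under 0.05, as 726 genes did. Of the 10 genes, Trem2 alone did not overlap between genotypes, and for 8.34% of all genes tested. The median log2 difference over the 10 genes was 0.12, with 6 of them positive, and that of all genes tested -0.0029.

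Trem2 was at 43.5, 27.4, 36.4 and 44.7 CPM in Smad4iko 1 to 4, against 45.0, 57.0 and 49.6 CPM in Smad4fl/fl 1 to 3. Every Smad4iko library was below every Smad4fl/fl library, by a margin of less than 1 CPM between the closest pair. The means were 38.0 ± 7.95 CPM in Smad4iko (SD, n = 4) and 50.5 ± 6.05 CPM in Smad4fl/fl (SD, n = 3), and the log2 difference was -0.49 ± 0.16 (SE, edgeR adjusted p = 0.678). In 18 other fits it was -0.58 to -0.38, and none of them called it.

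The genes of lipid entry overlapped between genotypes. Lpl was at 2435, 2080.3, 2268 and 1927 CPM in Smad4iko 1 to 4, against 1695, 2051 and 1571 CPM in Smad4fl/fl 1 to 3. Smad4iko 1, 2 and 3 lay above the Smad4fl/fl range and Smad4iko 4 within it, and the log2 difference was 0.23 ± 0.14 (adjusted p = 0.823). Cd36 was at 521, 523, 354 and 246 CPM in Smad4iko 1 to 4, against 497, 485 and 427 CPM in Smad4fl/fl 1 to 3. The 2 lowest values were those of Smad4iko 3 and 4, while Smad4iko 1 and 2 lay above the Smad4fl/fl range, and the log2 difference was -0.24 ± 0.27 (adjusted p = 0.902).

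Among the genes of storage and transport within the cell, Plin2 was at 1543, 1367, 913 and 881 CPM in Smad4iko 1 to 4, against 1284, 1295 and 1081 CPM in Smad4fl/fl 1 to 3. The libraries split as for Cd36, with Smad4iko 3 and 4 lowest and Smad4iko 1 and 2 highest, and the log2 difference was -0.11 ± 0.23 (adjusted p = 0.955). Fabp5 was at 866, 630.5, 817 and 907 CPM in Smad4iko 1 to 4, against 528, 819 and 514 CPM in Smad4fl/fl 1 to 3. Smad4iko 1 and 4 lay above all Smad4fl/fl libraries, and the log2 difference was 0.30 ± 0.19 (adjusted p = 0.832).

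For cholesterol efflux, Abcg1 was at 1436, 1628, 1407 and 1472 CPM in Smad4iko 1 to 4, against 1146, 1409 and 1160.0 CPM in Smad4fl/fl 1 to 3. Smad4iko 3 lay just below the highest Smad4fl/fl library and the other Smad4iko libraries above it, and the log2 difference was 0.20 ± 0.13 (adjusted p = 0.838). Apoe was low in this class, at 61.3, 75.5, 62.9 and 28.5 CPM in Smad4iko 1 to 4, against 38.5, 19.9 and 43.3 CPM in Smad4fl/fl 1 to 3. Smad4iko 4 lay within the Smad4fl/fl range and the other Smad4iko libraries above it, with a log2 difference of 0.70 ± 0.37 (adjusted p = 0.806).

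Of the remaining marks of lipid-associated macrophages, Spp1 was at 964, 576, 1063 and 760.1 CPM in Smad4iko 1 to 4, against 1074, 814 and 1358 CPM in Smad4fl/fl 1 to 3, with a log2 difference of -0.44 ± 0.23 (adjusted p = 0.806). Smad4fl/fl 3 was the highest library and Smad4iko 2 the lowest. Gpnmb ranged over 170.2 to 284 CPM in Smad4iko and 184 to 220.2 CPM in Smad4fl/fl libraries, with a log2 difference of 0.05 ± 0.20, and Cd9 over 2551 to 3289.8 CPM in Smad4iko and 1814 to 2819.6 CPM in Smad4fl/fl libraries, with 0.18 ± 0.16. Both overlapped between genotypes.

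**Figure D3:**
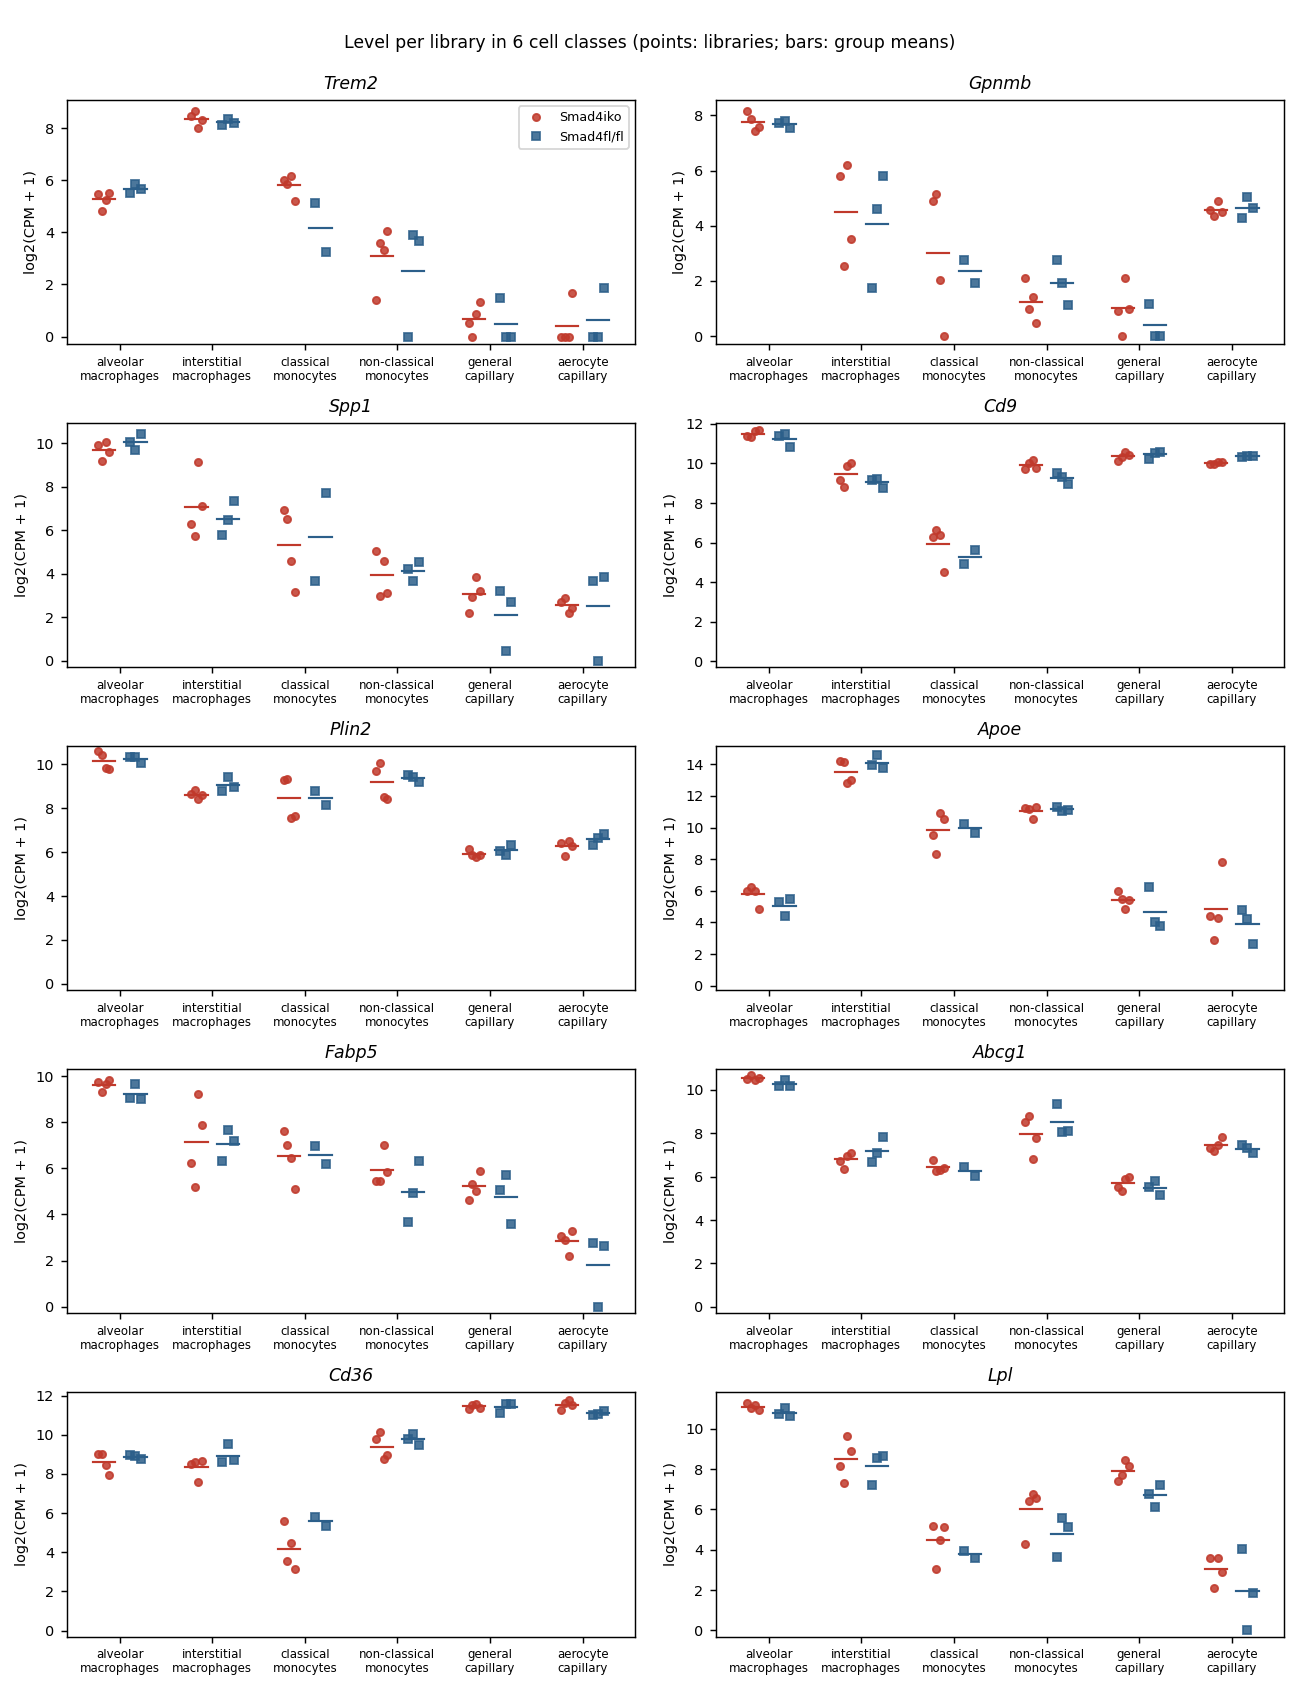
Level of each gene as log2(CPM + 1) in 6 cell classes, 1 point per library (Smad4iko circles on the left, Smad4fl/fl squares on the right; bars are means of the points). Libraries with fewer than 15 cells of a class are left out, which leaves 2 Smad4fl/fl libraries in classical monocytes.

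Marker sums of other cells moved with genotype in the alveolar macrophages. The neutrophil list summed to 213 to 597 CPM in Smad4iko and 61.8 to 201 CPM in Smad4fl/fl libraries, and the erythroid list to 46.5 to 753 CPM in Smad4iko and 5.96 to 21.5 CPM in Smad4fl/fl libraries, without overlap. Neutrophils express Spp1, Cd9 and Fabp5, and the part of these transcripts in the values above was not tested. The interstitial macrophage list, whose cells are rich in Trem2 and Apoe, summed to 93.3 to 134 CPM in Smad4iko and 75.0 to 113 CPM in Smad4fl/fl libraries and overlapped. Within the class, cells of the cluster that held most of Smad4iko 3 and 4 had 312 CPM of Cd36, 952 CPM of Plin2 and 174 CPM of Gpnmb. The main cluster of the other libraries had 499.7, 1334 and 229 CPM of the same genes. Cycling alveolar macrophages, 345 cells led by Rrm2, Birc5 and Top2a, had 1401 CPM of Lpl, against 2041 CPM in the main cluster, and 60.2 CPM of Trem2, against 42.4 CPM.

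With a covariate for Smad4iko 3 and 4 in the alveolar macrophage fit, the log2 differences of Cd36, Plin2 and Gpnmb were 0.14, 0.24 and 0.33, of opposite sign for Cd36 and Plin2 to those over all libraries. The other 7 genes had the same sign in every fit run. No such fit called any of the 10.

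In interstitial macrophages none of the 10 genes was called by edgeR (0.0182% of 5506 genes tested), none had an unadjusted p under 0.05 (234 genes did), and none separated the genotypes (5.1% of genes did). Libraries differed widely within a genotype. Apoe was at 19261, 18398, 7097 and 8068 CPM in Smad4iko 1 to 4, against 15925, 24224 and 14043 CPM in Smad4fl/fl 1 to 3. Smad4iko 3 and 4 were the 2 lowest, and Smad4iko 1 and 2 lay within the Smad4fl/fl range. The log2 difference was -0.37 ± 0.40 (adjusted p = 0.943). Trem2 was even by comparison, at 351, 401, 254 and 317 CPM in Smad4iko 1 to 4, against 279, 327 and 292 CPM in Smad4fl/fl 1 to 3, with a log2 difference of 0.20 ± 0.24 (adjusted p = 0.943).

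Spp1 was at 76.3, 52.8, 554 and 136 CPM in Smad4iko 1 to 4, against 54.0, 87.8 and 159 CPM in Smad4fl/fl 1 to 3. The value of Smad4iko 3 was above all others, and the log2 difference was 1.13 ± 0.74 (adjusted p = 0.937). Fabp5 was at 73.3, 36.0, 603 and 236 CPM in Smad4iko 1 to 4, against 79.8, 205 and 143 CPM in Smad4fl/fl 1 to 3, and Lpl at 281, 158, 806 and 474 CPM in Smad4iko 1 to 4, against 148, 379 and 396 CPM in Smad4fl/fl 1 to 3. Smad4iko 3 was the highest library and Smad4iko 4 the next for both, with log2 differences of 0.83 ± 0.76 and 0.57 ± 0.51 (adjusted p = 0.943 and 0.943). Cd9 ranged over 449 to 1055 CPM in Smad4iko and 427 to 590.0 CPM in Smad4fl/fl libraries, Cd36 over 194 to 408 CPM in Smad4iko and 387 to 729 CPM in Smad4fl/fl libraries and Plin2 over 337 to 459 CPM in Smad4iko and 437 to 693 CPM in Smad4fl/fl libraries. Abcg1 ranged over 81.6 to 136 CPM in Smad4iko and 101 to 225 CPM in Smad4fl/fl libraries and Gpnmb over 4.80 to 72.3 CPM in Smad4iko and 2.35 to 54.9 CPM in Smad4fl/fl libraries. All 5 overlapped between genotypes.

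Directions in interstitial macrophages changed with the cells and libraries fitted. With all clusters kept, 6 of the 10 genes were positive over all libraries. With the covariate for Smad4iko 3 and 4 it was 4 of 10, and without Smad4iko 3 it was 3 of 10. Without the 285-cell cluster of which Smad4iko 4 gave 216 cells and Smad4fl/fl 2 gave 46, the log2 difference was -0.98 for Spp1, -0.70 for Fabp5, -0.26 for Lpl and -0.15 for Cd9. The sign changed for 6 of the 9 genes that could be tested, and none was called. In that cluster Apoe was at 7574 CPM in the cells of Smad4iko 4, against 26216 CPM in those of Smad4fl/fl 2. The neutrophil marker list summed to 417 to 13508 CPM in Smad4iko and 115 to 599.95 CPM in Smad4fl/fl libraries in this class, with the highest sum in the 30 cells of Smad4iko 1, and overlapped. The erythroid list summed to 9.60 to 9809 CPM in Smad4iko and 0 to 5.31 CPM in Smad4fl/fl libraries, without overlap. The part of these cells in Spp1, Fabp5 and Cd9 was not tested.

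The genotype effect was compared directly between alveolar and interstitial macrophages within each library. By limma 0 of 5428 genes were called (0%), while 239 genes and 1 member, Apoe, had an unadjusted p under 0.05. The difference of the log2 differences was 1.19 ± 0.49 for Apoe (SE, adjusted p = 0.923) and -0.66 ± 0.32 for Trem2 (adjusted p = 0.923). The 2 macrophage classes were thus not shown to differ in their response.

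In non-classical monocytes 9 of the 10 genes were tested and none was called by edgeR (0.0137% of 7286 genes), with 2 of them, and 585 genes in all, at an unadjusted p under 0.05. Of the 9, Cd9 alone separated the genotypes (9.91% of genes tested did), at 836, 1031, 1165 and 861 CPM in Smad4iko 1 to 4, against 723, 629 and 492 CPM in Smad4fl/fl 1 to 3. All 4 Smad4iko libraries were above the 3 Smad4fl/fl libraries. The means were 973 ± 154 CPM in Smad4iko (SD, n = 4) and 615 ± 116 CPM in Smad4fl/fl (SD, n = 3), with a log2 difference of 0.66 ± 0.20 (adjusted p = 0.542) that stayed at 0.53 to 0.79 in the other fits. Lpl was at 18.4, 83.2, 109 and 94.1 CPM in Smad4iko 1 to 4, against 11.7, 46.7 and 34.1 CPM in Smad4fl/fl 1 to 3. Smad4iko 2, 3 and 4 were above all Smad4fl/fl libraries and Smad4iko 1 was not, with a log2 difference of 1.11 ± 0.50 (adjusted p = 0.618).

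Lipid entry, storage and efflux genes of non-classical monocytes overlapped. Cd36 was at 868, 1111, 439 and 493 CPM in Smad4iko 1 to 4, against 875, 1057 and 715 CPM in Smad4fl/fl 1 to 3, and Plin2 at 836, 1071, 369 and 338 CPM in Smad4iko 1 to 4, against 723, 682 and 591 CPM in Smad4fl/fl 1 to 3. For both genes Smad4iko 2 was highest and Smad4iko 3 and 4 lowest. Abcg1 ranged over 112 to 439.5 CPM in Smad4iko and 261 to 653 CPM in Smad4fl/fl libraries and Apoe over 1468 to 2525 CPM in Smad4iko and 2159 to 2538 CPM in Smad4fl/fl libraries. Fabp5 was at 43.4, 42.6, 129 and 56.4 CPM in Smad4iko 1 to 4, against 11.7, 29.3 and 78.8 CPM in Smad4fl/fl 1 to 3, highest in Smad4iko 3. Gpnmb reached at most 5.83, Spp1 31.7 and Trem2 15.6 CPM in any library.

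Marker sums of alveolar macrophages, whose cells are rich in Lpl, Cd9 and Fabp5, were higher in Smad4iko in this class. They came to 581 to 1497 CPM in Smad4iko and 327 to 519 CPM in Smad4fl/fl libraries, without overlap, and 7 to 11 of the 11 markers had UMIs. The classical monocyte list, which shares Chil3 with the alveolar list, came to 570.2 to 1134 CPM in Smad4iko and 175 to 367 CPM in Smad4fl/fl libraries. The neutrophil list came to 411 to 5177 CPM in Smad4iko and 169 to 3034 CPM in Smad4fl/fl libraries, and overlapped. Their part in the Cd9, Lpl and Fabp5 values was not tested.

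Classical monocytes could be compared in 6 libraries, because Smad4fl/fl 1 held 4 of these cells, and this fit was added after seeing the data. No member was called by edgeR, as for all 7125 genes (0%), while 744 genes and 1 member had an unadjusted p under 0.05. DESeq2 called 34 of 2947 genes tested and none of the 6 members tested. The remaining members were not tested in that fit, so it gives no result for them. Trem2 was at 62.6, 56.7, 70.3 and 35.7 CPM in Smad4iko 1 to 4, against 33.5 and 8.44 CPM in Smad4fl/fl 2 and 3. All Smad4iko libraries were above both Smad4fl/fl libraries, as holds for 23% of genes in either direction with so few libraries. Its log2 difference was 1.24 ± 0.44 (adjusted p = 0.394). Smad4iko 4 and Smad4fl/fl 2 were closest, and the values rest on 65, 63, 137 and 18 UMIs in Smad4iko, against 23 and 3 UMIs in Smad4fl/fl.

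The other 9 genes of classical monocytes overlapped between genotypes. Cd36 was at 47.2, 10.8, 21.0 and 7.94 CPM in Smad4iko 1 to 4, against 55.4 and 39.4 CPM in Smad4fl/fl 2 and 3, lowest in Smad4iko 2 and 4, with a log2 difference of -1.15 ± 0.55 (adjusted p = 0.499). Plin2 was at 624, 634, 188 and 199 CPM in Smad4iko 1 to 4, against 443 and 279 CPM in Smad4fl/fl 2 and 3, and Apoe at 751, 324, 1941 and 1501 CPM in Smad4iko 1 to 4, against 1189.6 and 821 CPM in Smad4fl/fl 2 and 3. Smad4iko 3 and 4 were low for Plin2 and high for Apoe, and Smad4iko 1 and 2 the reverse. The alveolar macrophage list summed to 854 to 2146 CPM in Smad4iko and 391 to 415 CPM in Smad4fl/fl libraries in this class. It includes Chil3, which is also a marker of classical monocytes themselves, and the part of Chil3 in that sum was not examined. The neutrophil list summed to 256 to 1592 CPM in Smad4iko and 211 to 214 CPM in Smad4fl/fl libraries. Both sums were higher in Smad4iko, and their part in the values was not tested.

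In general capillary cells, which line the alveolar capillaries together with aerocytes, Lpl was higher in every Smad4iko library. It was at 172, 205, 343 and 279 CPM in Smad4iko 1 to 4, against 109, 67.7 and 147 CPM in Smad4fl/fl 1 to 3, from 388, 183, 411 and 567 UMIs in Smad4iko and 963, 174 and 81 UMIs in Smad4fl/fl. The lowest Smad4iko library lay above the highest Smad4fl/fl library, Smad4fl/fl 3 with 64 cells, and Smad4iko 3 and 4 were the 2 highest. The means were 249.6 ± 76.6 CPM in Smad4iko (SD, n = 4) and 108 ± 39.8 CPM in Smad4fl/fl (SD, n = 3), a ratio of 2.31, and the log2 difference was 1.24 ± 0.29 (SE). By edgeR the adjusted p was 0.604 and none of the 8 members tested was called, where 0.0203% of 9841 genes were. Its unadjusted p was 0.00135, and 511 genes had one under 0.05. DESeq2 called Lpl (log2 difference 1.23 ± 0.27, adjusted p = 0.00619) among 0.137% of its genes. So did edgeR without a filter on low counts (1.23 ± 0.21, adjusted p = 0.00293), among 0.294% of genes. Groups that did not overlap were found for 5.59% of genes tested.

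The size of the Lpl difference in general capillary cells depended on Smad4iko 3 and 4. With a covariate for them it was 0.86 ± 0.26 (adjusted p = 0.985), and without both libraries 0.85 ± 0.26 (adjusted p = 1). Across 18 other fits it ranged from 0.85 to 1.45, with adjusted p from 0.00293 to 1. The share of cells with a UMI of Lpl after thinning, which rests on the same UMIs, did not overlap between genotypes either. It was 20.8, 22.6, 35.2 and 27.6% in Smad4iko 1 to 4, against 13, 7.82 and 10.6% in Smad4fl/fl 1 to 3. In the largest cluster of the class, led by Gpihbp1, Sema3c and Plvap, Lpl was at 169.6, 208, 343 and 284 CPM in Smad4iko 1 to 4, against 112, 67.6 and 150.1 CPM in Smad4fl/fl 1 to 3. Gpihbp1, which anchors lipoprotein lipase on capillaries, had a log2 difference of 0.07 ± 0.14 (adjusted p = 1).

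Alveolar macrophage markers in general capillary cells summed to 159 to 489 CPM in Smad4iko and 249 to 369 CPM in Smad4fl/fl libraries, and overlapped. The neutrophil list summed to 122 to 977 CPM in Smad4iko and 17.9 to 67.2 CPM in Smad4fl/fl libraries and the platelet list to 70.7 to 306 CPM in Smad4iko and 13.3 to 41.8 CPM in Smad4fl/fl libraries, without overlap between genotypes. The part of any of these 3 lists' cells in the Lpl values was not tested. Trem2 reached at most 1.81 and Gpnmb 3.34 CPM in any library, and both were below the filter of the edgeR fit. DESeq2 and edgeR without a filter tested all 10 members and called only Lpl. Spp1 ranged over 3.54 to 13.3 CPM in Smad4iko and 0.389 to 8.24 CPM in Smad4fl/fl libraries. It overlapped between genotypes, with a log2 difference of 0.53.

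Cd36 in general capillary cells was at 2541, 2983, 3099 and 2608 CPM in Smad4iko 1 to 4, against 2210.3, 3002 and 3077 CPM in Smad4fl/fl 1 to 3, with a log2 difference of 0.01 ± 0.13 (adjusted p = 1). The genotypes overlapped. Cd9 ranged over 1107 to 1513 CPM in Smad4iko and 1209.6 to 1538 CPM in Smad4fl/fl libraries and Plin2 over 54.2 to 69.4 CPM in Smad4iko and 58.0 to 80.0 CPM in Smad4fl/fl libraries. Apoe ranged over 27.5 to 61.9 CPM in Smad4iko and 12.7 to 76.3 CPM in Smad4fl/fl libraries, Abcg1 over 39.2 to 62.0 CPM in Smad4iko and 34.5 to 55.2 CPM in Smad4fl/fl libraries and Fabp5 over 23.9 to 58.6 CPM in Smad4iko and 10.9 to 51.7 CPM in Smad4fl/fl libraries. All 5 of these genes overlapped between genotypes.

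In aerocytes, the large capillary cells that face the air space, 4 members were tested and none was called by edgeR (0.0344% of 5809 genes), with 2 of them, and 592 genes in all, at an unadjusted p under 0.05. Cd36 and Cd9 both separated the genotypes, in opposite directions (9.97% of genes did in either). Cd36 was at 2461, 3164, 3447 and 2962 CPM in Smad4iko 1 to 4, against 2099.7, 2156 and 2348 CPM in Smad4fl/fl 1 to 3. All Smad4iko libraries were above the Smad4fl/fl libraries, with a log2 difference of 0.41 ± 0.16 (adjusted p = 0.442). Cd9 was at 1009, 993, 1073 and 1062 CPM in Smad4iko 1 to 4, against 1293, 1339 and 1304 CPM in Smad4fl/fl 1 to 3. Each Smad4iko library was under each Smad4fl/fl library, with means of 1034 ± 39.1 CPM in Smad4iko (SD, n = 4) and 1312 ± 24.0 CPM in Smad4fl/fl (SD, n = 3) and a log2 difference of -0.38 ± 0.14 (adjusted p = 0.442).

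Both signs held in all 18 other fits of the aerocytes, at 0.25 to 0.49 for Cd36 and -0.41 to -0.37 for Cd9. The aerocytes of the genotypes were spread differently over clusters. Cells of the cluster that held most of Smad4iko 3 and 4 had 3407 CPM of Cd36 and 1093 CPM of Cd9, against 2222 and 1293 CPM in the cluster with the most Smad4fl/fl cells (156, 31 and 35). Within that last cluster, where Smad4iko 3 and 4 had 2 and 11 cells, Cd9 was at 1016 and 1066 CPM in Smad4iko 1 and 2, against 1359, 1390.3 and 1389 CPM in Smad4fl/fl 1 to 3. Cd36 was at 2164 and 2908 CPM in the same Smad4iko libraries, against 2096, 2158 and 2290.4 CPM. With 2 against 3 libraries, Cd9 did not overlap between genotypes there and Cd36 did. The share of all genes that separate in this cluster was not counted, so no conclusion is drawn from it.

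Plin2 in aerocytes ranged over 55.3 to 90.9 CPM in Smad4iko and 78.3 to 114 CPM in Smad4fl/fl libraries and Abcg1 over 143 to 222 CPM in Smad4iko and 135 to 172 CPM in Smad4fl/fl libraries. Apoe was below the filter of the fit, and edgeR without a filter called it (0.873% of 14546 genes), at 20.6, 6.51, 18.2 and 224 CPM in Smad4iko 1 to 4, against 26.3, 17.8 and 5.29 CPM in Smad4fl/fl 1 to 3. Smad4iko 4 was far above the other libraries of both genotypes, and a fit without both a filter and that library was not run. Neutrophil markers summed to 183 to 752 CPM in Smad4iko and 11 to 92.5 CPM in Smad4fl/fl libraries in aerocytes and erythroid markers to 52.1 to 1512 CPM in Smad4iko and 10.7 to 37.0 CPM in Smad4fl/fl libraries, without overlap, and their part was not tested. The alveolar macrophage list, which shares Car4 with the aerocyte list, summed to 2769.8 to 3960.0 CPM in Smad4iko and 2639 to 2748 CPM in Smad4fl/fl libraries. The direct comparison of the genotype effect between general and aerocyte capillary cells called 0 of 5764 genes by limma (0%), while 452 genes and no member had an unadjusted p under 0.05. It was -0.38 ± 0.20 for Cd36 (adjusted p = 0.662) and 0.28 ± 0.20 for Cd9 (adjusted p = 0.706), so that the 2 capillary classes were not shown to differ.

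**Figure D4:**
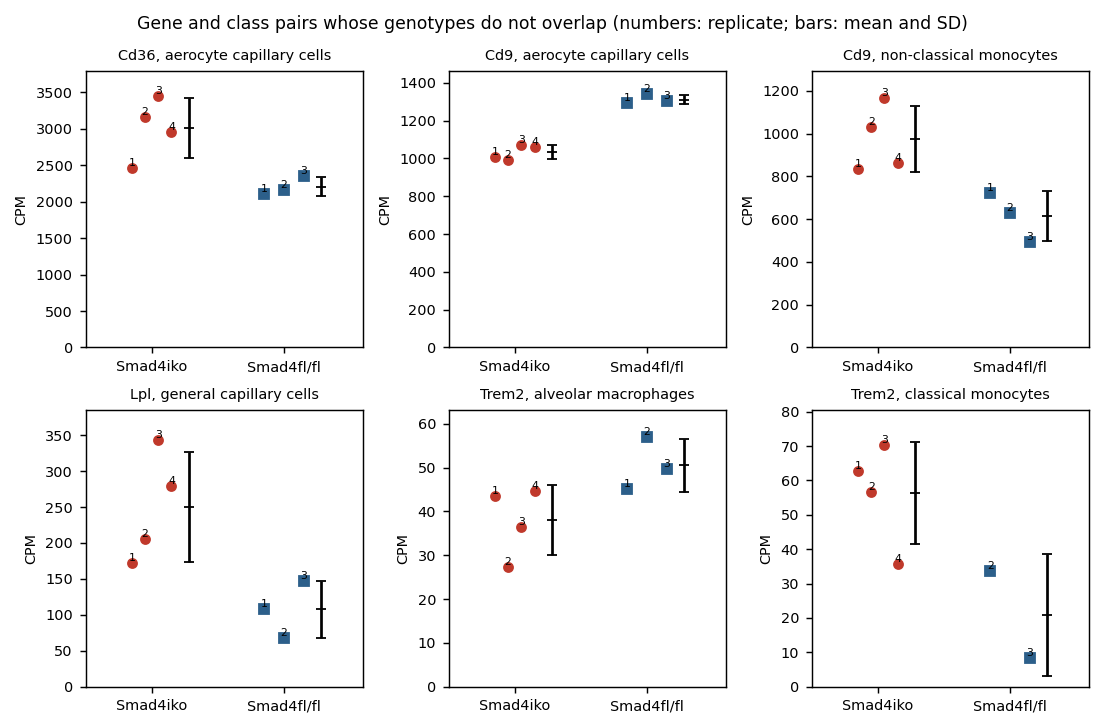
The 6 pairs of gene and class in which no Smad4iko library overlapped a Smad4fl/fl library, in CPM per library from 0 (Smad4iko left, Smad4fl/fl right; numbers are replicates, bars mean and SD). The gap is widest relative to the spread for Cd9 in aerocytes, and narrowest for Trem2 in alveolar macrophages and in classical monocytes.

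**Figure D5:**
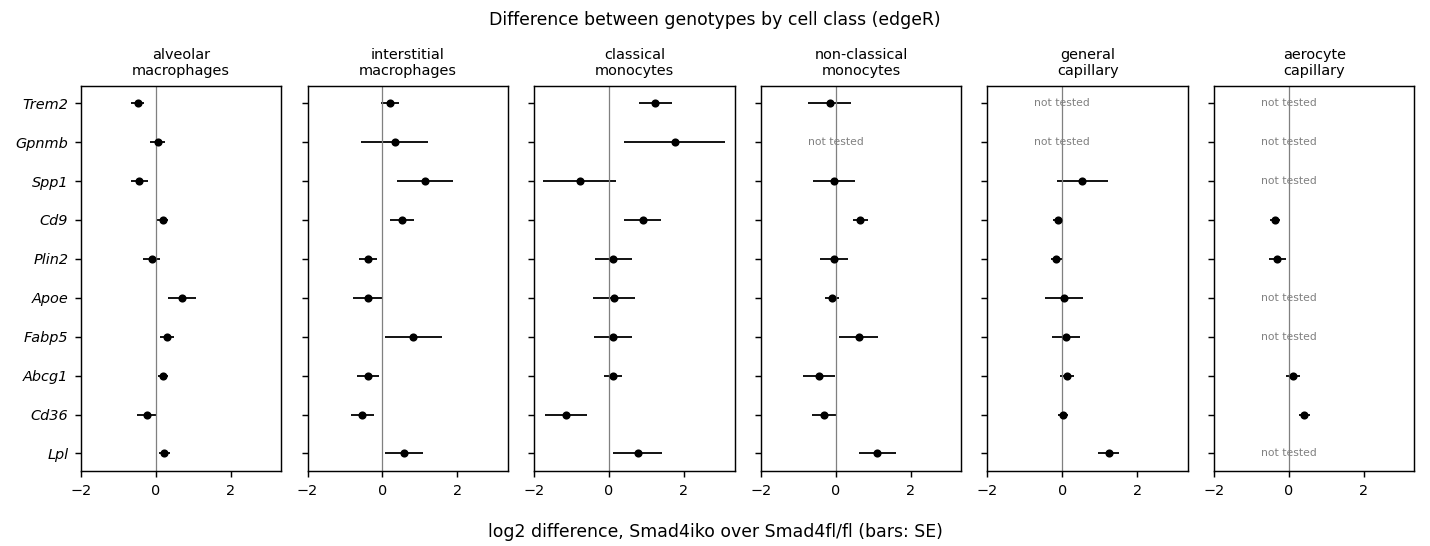
Log2 difference, Smad4iko over Smad4fl/fl, from edgeR with its standard error, for each gene in 6 classes (genes below the filter are marked as not tested). None was called. Lpl stands at 1.24 in general capillary cells, and Trem2 at 1.24 in classical monocytes with a wider error.

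Few genes of any kind were called in these classes, and most lay on the chromosome of Rosa26, the locus that carries creERT2. Of 8 calls in the 6 classes, 7 were on chromosome 6, as were 5 of the 6 genes called (Pianp, Klra3, Emp1, Npy and Hebp1). Chromosome 6 held 5.07% of the 12431 genes tested. Cd9 and Gpnmb lie on it too, and whether their position bears on the Cd9 values was not tested.

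The 3 genes whose mean log2 CPM over the 18 classes was most like that of each member, among 7100 genes, were found by Pearson correlation. For Trem2 they were Ms4a7, Fcgr1 and Msr1 (r = 0.96, 0.93 and 0.91), the first of them an interstitial macrophage marker. Those of Apoe were Fam20c, Blvrb and Nupr1 (r = 0.91, 0.83 and 0.82), and those of Cd36 Smagp, Nostrin and Mospd2 (r = 0.91, 0.90 and 0.90). Those of Lpl were Lrp12, Ch25h and Ccnl1 (r = 0.88, 0.85 and 0.85), and those of Gpnmb Gdf15, Hebp1 and Lrp12 (r = 0.90, 0.88 and 0.87). For Plin2 they were Creg1, Tkt and Tnfrsf21 (r = 0.92, 0.87 and 0.87), for Fabp5 Arl11, Ccl6 and Olr1 (r = 0.85, 0.85 and 0.85) and for Spp1 Bst1, Il18 and Clec5a (r = 0.93, 0.91 and 0.90). Those of Abcg1 were Ptbp3, Vps13d and Atp6v1b2 (r = 0.87, 0.83 and 0.83), and those of Cd9 Ptpn12, Gm34455 and Icam1 (r = 0.82, 0.79 and 0.79). Among the 10 genes the closest pair was Spp1 and Fabp5 (r = 0.82), followed by Trem2 and Plin2 (r = 0.74), and the most distant was Apoe and Abcg1 (r = -0.14). All these points share their 7 libraries, so the values are descriptions.

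Genes of 8 further lipid lists were set beside the members, and edgeR called none of them in any of the 6 classes. Over all genes tested the median log2 difference lay between -0.0037 and 0.015 in each class. In alveolar macrophages 4 of 16 sterol synthesis genes had an unadjusted p under 0.05, all lower in Smad4iko, beside 726 of all 11434 genes. The median log2 difference over the list was -0.24. Cyp51 was at -0.45 ± 0.14 and Mvd at -0.34 ± 0.12 (adjusted p = 0.666 and 0.695). With the covariate for Smad4iko 3 and 4, 7 of 16 were lower at that p, beside 1093 of all genes, and the median was -0.33. Without that covariate, the list's median was also negative in general capillary cells, at -0.23. In that class 3 of 14 genes were lower at that p, beside 511 of all 9841 genes, and 1 of 14 with the covariate. The list's median was -0.40 in aerocytes, -0.40 in classical and -0.28 in non-classical monocytes. It was 0.13 in interstitial macrophages over 7 genes, and -0.69 with the covariate for Smad4iko 3 and 4, where 2 of 7 were positive and 2 were lower at that p.

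Of 17 tested genes of fatty acid binding, activation and lipid droplets, 4 had an unadjusted p under 0.05 in alveolar macrophages, all higher, with a median of 0.16. Fabp4, a fatty acid carrier of macrophages and endothelium, was at 0.92 ± 0.31, the monoglyceride lipase Mgll at 0.35 ± 0.12 and Fabp1 at 0.74 ± 0.29 (adjusted p = 0.678, 0.681 and 0.743). Fabp1 is among the genes that led the cluster with most alveolar macrophages of Smad4iko 3 and 4. Fabp4 was called by edgeR with the covariate for Smad4iko 3 and 4 (1.37 ± 0.13, adjusted p = 0.00906). That fit called 4 genes higher and 2 lower of 11434. In it 8 of the 17 list genes were higher at an unadjusted p under 0.05, beside 1093 of all genes, and the list's median was 0.29. Among 10 uptake and scavenger receptors 2 were higher and 2 lower at that p, and the median was -0.16. With that covariate 1 was higher and 2 lower, and the median was 0.03. The scavenger receptor Marco was at -0.86 ± 0.28 and the high-density lipoprotein receptor Scarb1 at 0.34 ± 0.13.

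Lysosomal and lipid-associated partner genes had a median of -0.04 over 19 genes (0.07 with the covariate), with 2 higher at that p, Grn (progranulin) at 0.40 ± 0.11 and Psap (prosaposin) at 0.32 ± 0.13. Fatty acid oxidation had a median of 0.10 over 12 genes in alveolar macrophages and 0.19 in general capillary cells, where 11 of 12 were positive and 1 had an unadjusted p under 0.05. With the covariate the median in general capillary cells was -0.0025, with 6 of 12 positive and 0 at that p. Sterol transport and liver X receptor genes had a median of 0.07 over 12 genes, and none had an unadjusted p under 0.05. Genes that feed PPAR gamma, GM-CSF and TGF-beta input had a median of -0.13 over 14 (0.04 with the covariate), with Rxra at -0.36 ± 0.13. Capillary lipid transport genes had a median of -0.15 over 4 in general capillary cells and -0.04 over 3 in aerocytes, the last of which was 0.12 by DESeq2, which fitted more of its genes.

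The listed gene nearest to a call was Olr1, the receptor of oxidised low-density lipoprotein, in non-classical monocytes. Its log2 difference was -1.62 ± 0.22 by edgeR (adjusted p = 0.0561) and -1.59 ± 0.30 by DESeq2 (adjusted p = 0.000691). In this class DESeq2 called 1 gene higher and 4 lower of 15790 tested. The position of Olr1 relative to Rosa26, whose chromosome held most of the called genes, was not examined. In the same cells Lipa, the lysosomal acid lipase, was at 0.78 ± 0.18, and Hilpda, a droplet protein, at -1.69 ± 0.53 (adjusted p = 0.542 and 0.542). In classical monocytes the sterol genes Insig1 and Cyp51 were at -0.97 ± 0.21 and -1.20 ± 0.27, and the cholesterol exporter Abca1 at -1.30 ± 0.40 (adjusted p = 0.255, 0.26 and 0.372). The monocyte fits carry the same marker sums as given above, with Chil3 shared by the alveolar macrophage and classical monocyte lists.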

How the data were processed

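Peripheral lung was dissociated with collagenase and DNase, red cells were lysed, and single cells were captured with the 10x 3' kit, per the labels' protocols. The deposited values are raw UMI counts per gene and barcode, with cellranger 6.1.1 named in the file headers. The submitters' processing notes also name fastp, UMI-tools and the mm10 build, without versions or roles. Whether intronic reads were counted is not given in the sources used here.

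Of 55671 barcodes, 50955 passed minimums of 300 genes and 600 UMIs and a mitochondrial share up to 20%. Scrublet (in scanpy 1.11.5, expected rate 6%) marked 1284 doublets (2.52%), which were removed. Cells were clustered by Leiden (leidenalg 0.10.2, resolution 1, split at 0.5) on 2000 variable genes and 40 components with 15 neighbours, without the 10 genes and Smad4. Clusters were named from marker lists, and 2698 cells (5.43%) stayed unnamed. A difference from other accounts of these mice may come from these rebuilt names.

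UMIs were summed per library and class where at least 15 cells were present. Genotypes were compared by edgeR 4.0.16 (quasi-likelihood, TMM, filtered for low counts, Benjamini-Hochberg over all genes tested, adjusted p under 0.05), and classes by limma 3.58.1 on paired log2 CPM with a prior count of 2. DESeq2 1.42.0, other scaling, no filter, covariates, other cell filters and leaving out each library were alternatives. The tests were checked on simulated counts with a fixed spread between libraries. Only well-counted genes were changed there, so the check does not measure the power to find the differences reported here. P-values measure the spread between single mice. Intervals and floors cover counting error only. The total counts per library are given in the report, and no 2 libraries were duplicates by chi-square.

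The 10 genes, the lipid lists and the markers were chosen with earlier results of these data known. Genes named outside the 10 were the 3 of each list with the smallest p in a class or, for likeness, the 3 with the highest correlation among genes with at least 50 CPM in a class. Some genes that this rule names are not reported here. Gpihbp1 and genes that lead a cluster or carry the calls of all genes were named after their values were seen.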

Additional observations from a re-analysis of the deposited data

Results flagged for a closer look

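In 60 sets of 4 Smad4iko libraries (10 genes in 6 classes), 4 had 1 library far from the others by Dixon's test at its 95% critical value, where chance gives about 1 in 20. All 4 were the highest values of Smad4iko 3 or Smad4iko 4. Spp1 in interstitial macrophages stood at 554 CPM in Smad4iko 3, with the other Smad4iko libraries at 52.8 to 136 CPM. Fabp5 in non-classical monocytes stood at 129 CPM in Smad4iko 3, with the others at 42.6 to 56.4 CPM. Apoe in aerocytes stood at 224 CPM in Smad4iko 4, with the others at 6.51 to 20.6 CPM. Trem2 in aerocytes stood at 2.15 CPM in Smad4iko 4, which is 1 UMI, and was at 0 in the others.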

How the results depend on the processing

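No member was called in the 6 classes by edgeR as first fitted. DESeq2 called 1 member in general capillary cells (Lpl). Without a filter on low counts edgeR called 1 member in general capillary cells (Lpl) and 1 in aerocytes (Apoe). Of the lipid list genes, DESeq2 called 1, edgeR without a filter 4 and the fit with a covariate for Smad4iko 3 and 4 called 1. Leaving out 1 library gave 0 to 1 (Olr1 without Smad4iko 2). Over all genes of non-classical monocytes, DESeq2 called 1 higher and 4 lower of 15790. There edgeR called 21 higher and 23 lower of 15799 without a filter, and 2 and 2 of 6989 without Smad4iko 2. Without a filter it called 0.873% of 14546 genes in aerocytes. The covariate fit called 4 higher and 2 lower of 11434 genes in alveolar macrophages. Why these calls differ was not tested. Of 51 differences that were not called, 17 changed sign with that covariate, and 16 of 41 did without both libraries, a fit chosen after seeing the data. Leaving out 1 library changed 38 of 345 signs and called no member. RLE scaling and a sex covariate changed 0 of 41 signs. Whether replicate numbers pair the libraries was not settled. Correlations of same-numbered deviations ran from -0.162 to 0.468, and those of differently numbered ones from -0.545 to 0.387. The fit with a replicate block called 0 members. With the 10 genes among the variable genes, 57 of 60 mean levels stayed within 1 SD. Small classes limit precision: interstitial macrophages had 30 to 259 cells per library, and Smad4fl/fl 3 had 38 classical monocytes.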
